A study of Mus musculus with 2 samples.

Results

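Astrocytes of the mouse retina at postnatal day 7 were picked out of a single-cell RNA sequencing study in which the whole retina was dissociated with papain and run in droplets. The Mettl14-cKO library came from Mettl14 fl/fl;Chx10-Egfp/Cre mice, and the control library from mice described as Mettl14 fl/fl or fl/wt, so floxed Mettl14 alleles were carried on both sides. The Chx10-Egfp/Cre transgene makes Cre in retinal progenitors. METTL14 is a subunit of the complex that writes N6-methyladenosine (m6A) on RNA. There was 1 library per genotype, with no statement on how many animals were pooled, so differences between genotypes have no replicate check and carry no p-value.

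A cell counted as an astrocyte when its barcode had at least 1000 UMIs (unique molecular identifiers, each 1 captured RNA molecule), at least 500 genes and at most 15% mitochondrial UMIs, and met the following conditions. Its summed Pdgfra and Pax2 UMIs were 2 or more, it had at least 1 UMI of Gfap, Aldh1l1, S100b, Slc1a3 or Apoe, it had 0 UMIs of C1qa and of Pdgfrb, and it had at most 1 UMI of Rlbp1. This gave 47 cells in the Mettl14-cKO library and 28 in the control library, 75 of the 24841 barcodes that passed the cell filter. The levels of those 10 genes chose the cells, so they are given as a description and support nothing.

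Retinal astrocytes do not descend from the retinal progenitors that give neurons and Müller glia. They enter along the optic nerve as cells that express the transcription factor Pax2 and the PDGF receptor Pdgfra, spread over the inner surface of the retina and lay down the template that growing blood vessels follow, in part by secreting VEGF. Müller glia, the other large glial class of the retina, arise from the progenitors themselves and span its whole depth. With a Cre driven from progenitors, astrocytes are therefore cells that lie inside the mutant retina but outside the lineage in which Cre is made, and the comparison asks which of their transcripts differ between the libraries.

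The libraries held 59856468 UMIs in 15319 barcodes for Mettl14-cKO and 55921787 UMIs in 13287 barcodes for control. The cell filter left 13480 Mettl14-cKO and 11361 control barcodes, with medians of 3213 and 3493 UMIs. Barcode sequences found in both libraries numbered 39 among the filtered ones. The doublet caller Scrublet marked 11.98% of Mettl14-cKO and 6.92% of control barcodes. Xist was found in most cells of both libraries and the Y-linked Ddx3y had 0 UMIs in both. All intervals below are 95% intervals that cover counting error only.

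Astrocytes made up 0.349% of Mettl14-cKO barcodes (exact binomial interval 0.256 to 0.463%) and 0.246% of control barcodes (0.164 to 0.356%). The ratio of the shares was 1.41, with an interval of 0.868 to 2.35 that includes 1, so no difference in share was detectable at this depth. The cells held 292296 UMIs in the Mettl14-cKO library and 198407 in the control library, with a median per cell of 6031 UMIs (range 1144 to 19281) and 6991 UMIs (range 1736 to 17159). Scrublet marked 11 of the 47 Mettl14-cKO astrocytes and 2 of the 28 control astrocytes as doublets.

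The label was set beside the levels of its own markers, which the rule had used. Every member had Pdgfra, with 1 to 15 UMIs per cell in Mettl14-cKO and 2 to 16 in control astrocytes and a median of 7 in both. Pax2 was found in 25 of 47 Mettl14-cKO cells and in 14 of 28 control cells, and no member rested on Pax2 alone. Gfap, the glial filament protein, was found in 34 of 47 and 21 of 28 cells, at 633 UMIs per 1000000 (CPM) in Mettl14-cKO and 766 CPM in control astrocytes. Per cell it had a median of 2 and at most 24 UMIs in Mettl14-cKO, against a median of 3 and at most 28 UMIs in control, so the libraries overlapped over nearly their whole range. Microglia, a class that should lack Gfap, had it in 2 of 112 Mettl14-cKO and 0 of 49 control cells, with median depths of 6021 and 5000 UMIs. A count of 0 in the control microglia allows up to 13.54 CPM. The calcium-binding protein gene S100b was found in 41 of 47 and 23 of 28 cells, at 903 and 948 CPM. Aldh1l1, a general astrocyte marker that codes for a folate enzyme, was nearly absent: it had 0 UMIs in Mettl14-cKO astrocytes and 2 in control astrocytes.

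Markers of other cells were looked for in the same way. All 8 microglia markers were at 0 in both libraries. Among 8 markers of the oligodendrocyte lineage, Olig2 and Sox10 were at 0 in both libraries and the list summed to 4 UMIs in each. Among 8 markers of fibroblasts and meninges, Col1a1, Dcn and Lum were at 0 in both, and the list summed to 4 Mettl14-cKO UMIs and 0 control UMIs. Of the 12 Müller glia markers, 8 were found in each library, summing to 1488 CPM in Mettl14-cKO and 1668 CPM in control astrocytes, while Aqp4, Kcnj10, Abca8a and Cyp26a1 were at 0. The 7 retinal progenitor markers summed to 1071 CPM in Mettl14-cKO and 544 CPM in control astrocytes, or 688 and 444 CPM without the division genes Mki67 and Top2a. The 7 pericyte markers summed to 695 CPM in Mettl14-cKO and 353 CPM in control astrocytes, nearly all of it Rgs5, a regulator of G protein signalling, with 202 and 69 UMIs; Kcnj8, Abcc9, Acta2 and Higd1b were at 0 in both. The 9 rod markers summed to 117 UMIs (400 CPM) in Mettl14-cKO and 415 UMIs (2092 CPM) in control astrocytes. The 7 amacrine markers summed to 369 and 781 CPM. C1ql1 alone held 60 of their 108 Mettl14-cKO UMIs and 107 of their 155 control UMIs, and it is also among the genes higher in astrocytes than in Müller glia below.

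**Figure D1:**
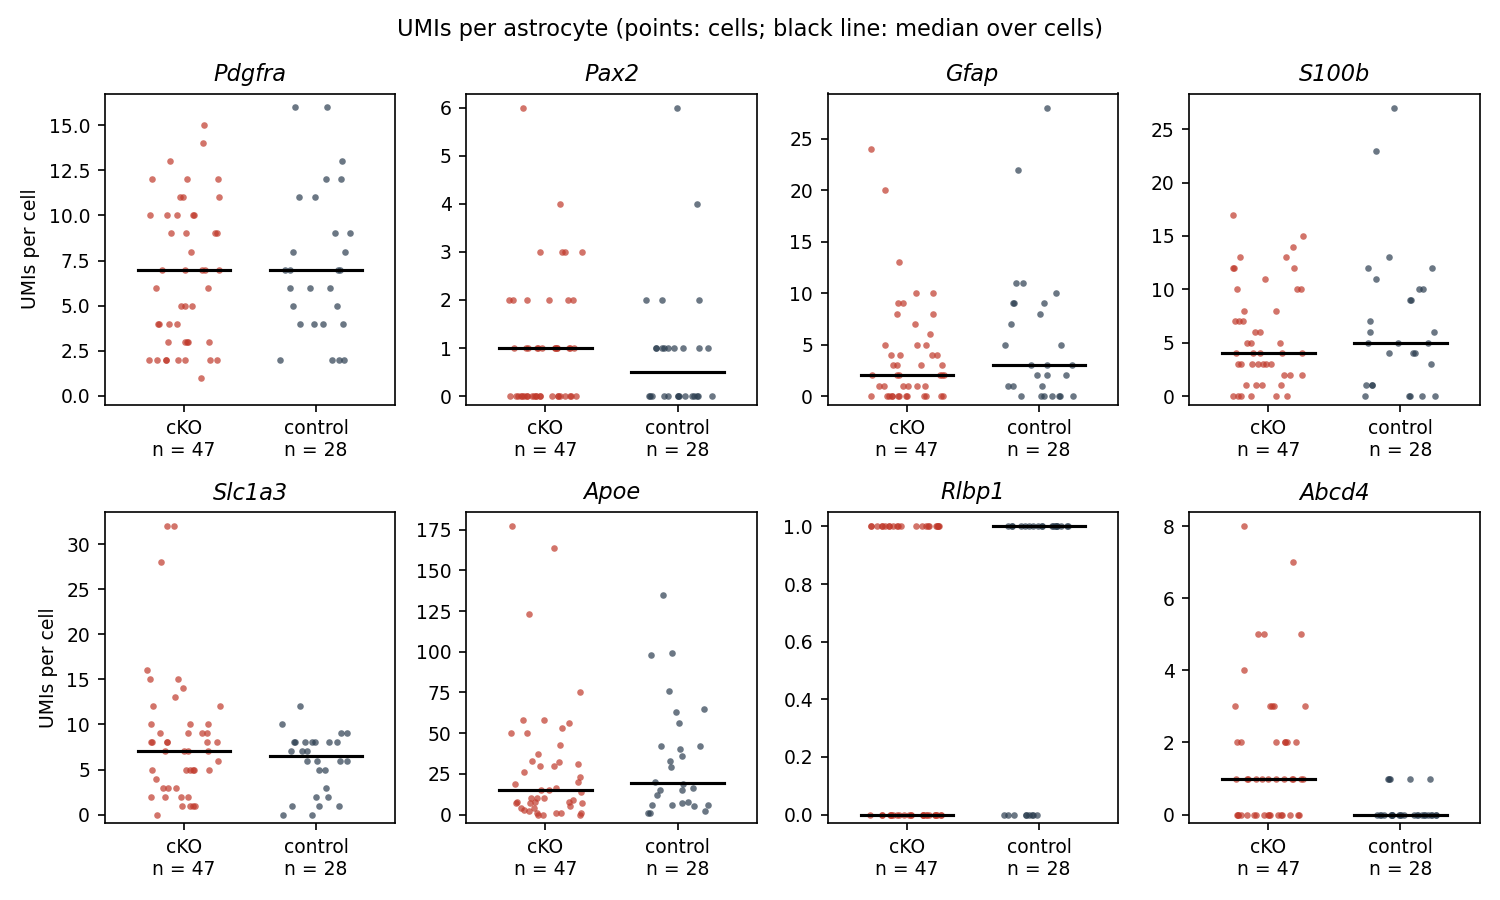
UMIs per cell (y axes) of 7 genes used in the choice and of Abcd4, with each point a cell and the black line the median over cells, Mettl14-cKO (47 cells) left of control (28 cells). Pdgfra has a median of 7 in both libraries, Rlbp1 is limited to 0 or 1 by the rule, and Abcd4 reaches 8 UMIs in Mettl14-cKO cells but never exceeds 1 in control cells.

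A joint clustering of all filtered barcodes, which did not use the rule, put 44 of 47 Mettl14-cKO and 24 of 28 control astrocytes into 1 of 31 clusters. That cluster held 142 Mettl14-cKO and 80 control barcodes, and its leading genes included Pax8, Angpt4, Gfap, S100b, Scrg1, Lcat, H19 and Pdgfra. The 3 Mettl14-cKO members and 1 control member that carried division genes lay together in another cluster. The last 3 control members lay in other clusters, 1 of them in the cluster that held 647 of the 786 control Müller glia described below. The other 2 had 14 and 23 UMIs of amacrine markers, only 2 Pdgfra UMIs each, and 0 of Gfap, S100b and Slc1a3. Their markers go against the name astrocyte, but the rule keeps them among the 28 control cells. The limit on Rlbp1, the gene of the retinaldehyde-binding protein of Müller glia, left out many barcodes of the main cluster, which held most members. Of the barcodes that met every other condition, 79 Mettl14-cKO and 51 control barcodes had 2 or more Rlbp1 UMIs, and 127 of these 130 lay in the main cluster. They carried Gfap at 889 CPM in Mettl14-cKO and 639 CPM in control, S100b at 1060 and 981 CPM, and Rlbp1 at 522 and 506 CPM, against 846 and 1304 CPM of Rlbp1 in Müller glia of the same libraries. Gfap thus had a ratio of 1.39 (1.20 to 1.61, Mettl14-cKO over control) there, against 0.83 (0.66 to 1.03) in the members. Their rod markers summed to 1103 and 1002 CPM and their progenitor markers to 690 and 651 CPM. These barcodes over the Rlbp1 limit share no cell with the astrocytes chosen by the rule. For genes outside the rule they give the same measure in other cells, though from the same 2 libraries. Gfap and S100b were among the conditions for both sets, so their levels and ratios are a description in both.

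The members with exactly 2 UMIs of Pdgfra and Pax2, 6 Mettl14-cKO and 4 control cells, had Gfap at 523 CPM and 0 CPM and S100b at 698 and 305 CPM. Barcodes with exactly 1 UMI that otherwise met the rule, 60 Mettl14-cKO and 23 control, had Gfap at 10.6 and 9.55 CPM and rod markers at 5067 and 8822 CPM, and only 6 and 3 of them lay in the main cluster. Members with exactly 1 Rlbp1 UMI, 22 Mettl14-cKO and 19 control, had Gfap at 736 and 823 CPM, and the barcodes just outside with exactly 2, 22 and 14, had it at 895 and 858 CPM.

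Astrocytes differed from Müller glia across genes that the rule did not use. Müller glia were taken as barcodes with at least 2 Rlbp1 UMIs, at least 1 of Slc1a3 and of Apoe, and 0 of Pdgfra, Pax2, C1qa, Pdgfrb, Mki67 and Top2a, which gave 857 Mettl14-cKO and 786 control cells. Of 4936 genes compared within each library, 112 (2.27%) were at least 2-fold higher in astrocytes in both libraries and 416 (8.43%) at least 2-fold lower. Within the Mettl14-cKO library alone 4.74% were higher and 17.0% lower, and within the control library 3.50% were higher and 18.7% lower. The 2-fold limit is a rule of size and not a test. The cells compared come from the same library each time, so the libraries stand as 2 readings of the contrast, in different genotypes.

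The named genes higher in astrocytes included several secreted and matrix proteins. Igf2, insulin-like growth factor 2, was at 1235 CPM in Mettl14-cKO astrocytes and 11.6 CPM in Müller glia, and at 1452 and 5.83 CPM in control. Cst3, the gene of the protease inhibitor cystatin C, was at 47568 against 975 CPM in the Mettl14-cKO library and 46415 against 957 CPM in the control library. The ratios of 48.8 and 48.5 for Cst3 were the closest between libraries among the genes named here. Fn1, fibronectin, which lies on the paths of growing vessels, was at 773 against 8.29 CPM in Mettl14-cKO and 534 against 14.98 CPM in control. Igfbp5, a binding protein of insulin-like growth factors, was 49.5-fold and 33.9-fold higher, and Crim1, a membrane protein that binds bone morphogenetic proteins, 11.8-fold and 13.2-fold.

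Others code for membrane and intracellular proteins. Ntrk2, the receptor of brain-derived neurotrophic factor, was at 825 against 5.80 CPM in Mettl14-cKO and 575 against 5.83 CPM in control, and was found in 97.9% and 89.3% of astrocytes. Mlc1, a membrane protein of astrocyte endfeet, was 16.7-fold higher in Mettl14-cKO and 10.95-fold higher in control. Epas1, which codes for the hypoxia-inducible factor HIF-2α, was 18.2-fold and 8.89-fold higher, and Id4, which blocks DNA binding by its partner transcription factors, 8.91-fold and 9.52-fold. Mt3, a metal-binding protein, was 25.05-fold and 8.80-fold higher. Fabp7, the fatty acid binding protein of immature glia, was 12.2-fold and 8.58-fold higher, and Crip1, a small LIM protein, 53.2-fold and 15.2-fold. Ap1s2, Atp1b1 and C1ql1 were each at least 7.01-fold higher in both libraries.

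Of the 10 named genes lowest in astrocytes, Crym, μ-crystallin and one of the Müller glia markers, was at 58.2 against 1598 CPM in the Mettl14-cKO library and 131 against 5067 CPM in the control library. Car2, a carbonic anhydrase, was at 51.3 against 793 CPM and 70.6 against 1497 CPM. Kdr, the main VEGF receptor, was at 37.6 against 653 CPM and 50.4 against 609 CPM, whereas its ligand gene Vegfa stood at 369 and 252 CPM in astrocytes and 101 and 169 CPM in Müller glia (Mettl14-cKO and control in each case). Sat1, Gpr37, Sept4, Acsl3 and Ndufa4l2 were all under 0.1 of the Müller level in both libraries. Irx5, a homeobox gene of retinal cells, had 5 UMIs in Mettl14-cKO and 0 in control astrocytes, and Sbspon had 2 and 0. Pax6, the transcription factor of the retinal lineage, was at 116 against 458 CPM in Mettl14-cKO and 101 against 450 CPM in control.

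**Figure D2:**
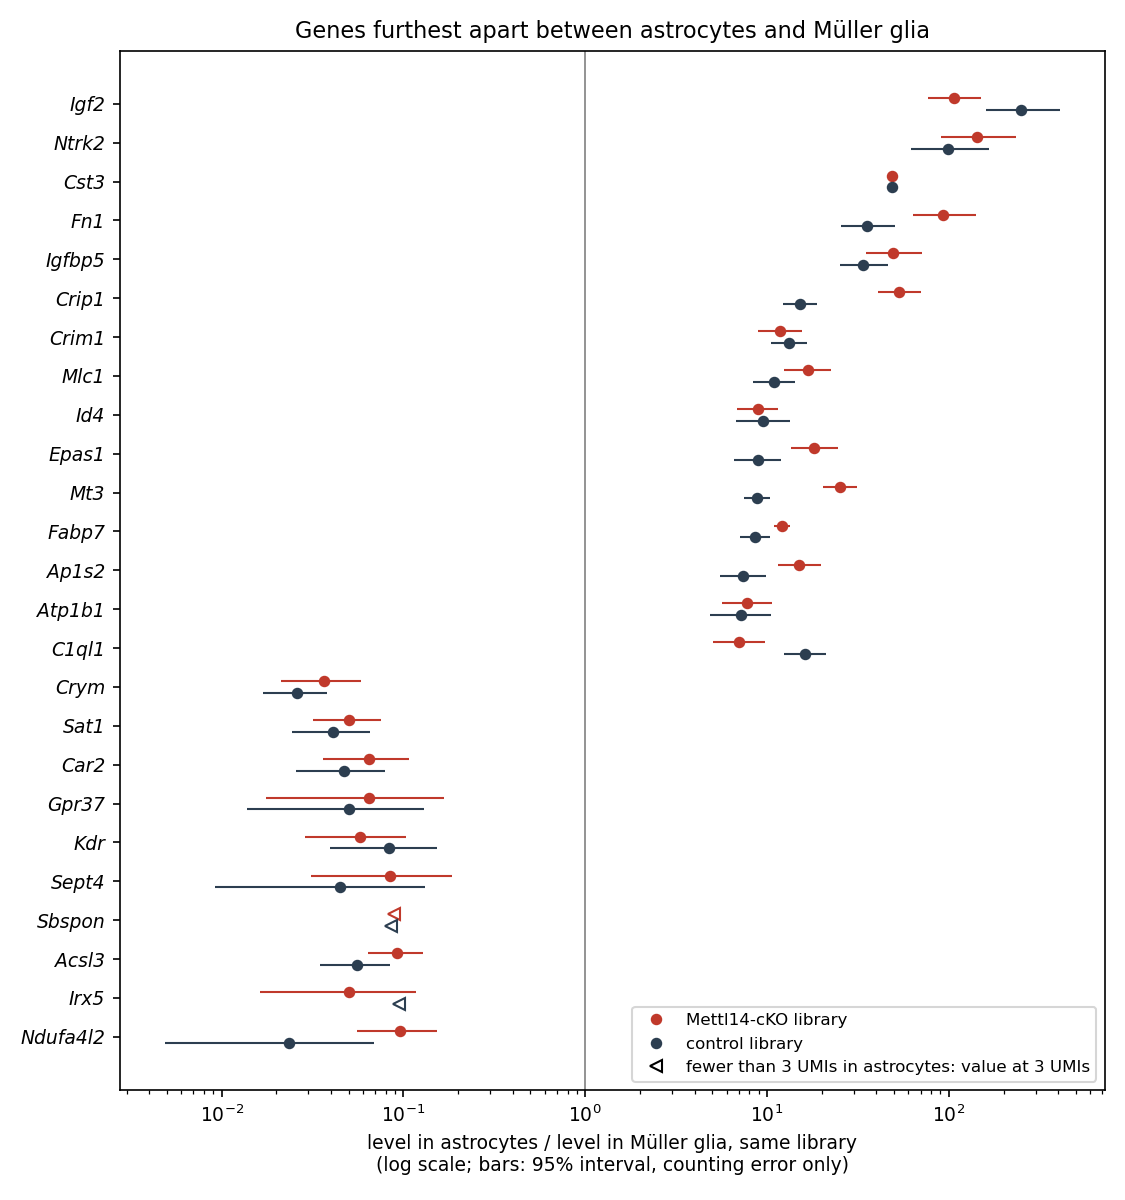
Ratio of the level in astrocytes to that in Müller glia of the same library (x axis, log scale) for the 15 genes highest and 10 genes lowest in astrocytes, Mettl14-cKO (red) above control (dark), with bars for the 95% interval of counting error. Every named gene lies on the same side of 1 in both libraries, and open triangles mark genes with fewer than 3 UMIs in astrocytes, drawn at 3 UMIs.

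Between genotypes, most of the astrocyte transcriptome that could be measured lay within 2-fold. Of 1646 genes with at least 50 UMIs over both libraries, 41 (2.49%) were at least 2-fold higher in Mettl14-cKO astrocytes and 26 (1.58%) at least 2-fold lower, and the median log2 ratio over all of them was -0.01. In Müller glia, where 9996 genes had 50 UMIs because of the larger number of cells, 458 (4.58%) were higher and 316 (3.16%) lower. In the barcodes over the Rlbp1 limit, 42 of 3309 genes (1.27%) were higher and 21 (0.635%) lower. A gene with few UMIs passes 2-fold more easily by counting error, so these percentages are not on equal depth.

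**Figure D3:**
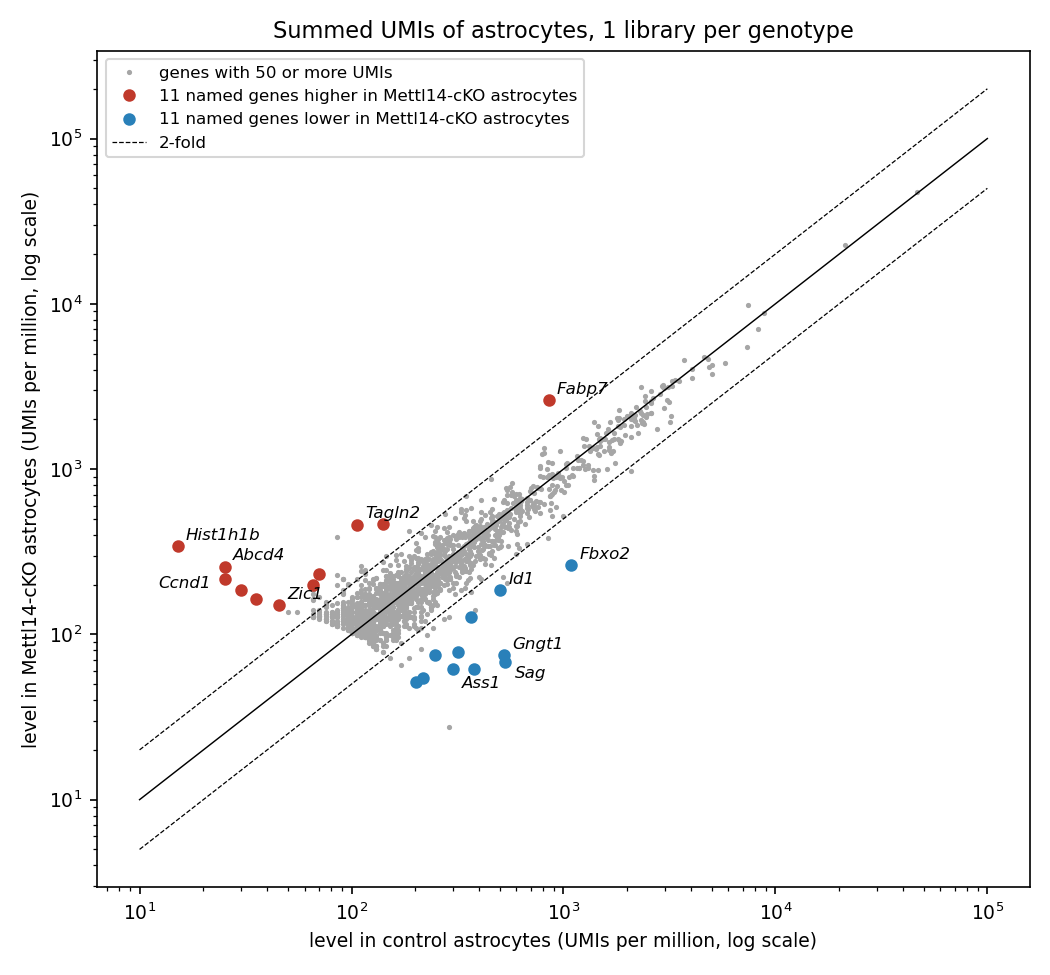
Level in Mettl14-cKO astrocytes (y axis) against the level in control astrocytes (x axis), both in CPM on log scales, for each gene with 50 or more UMIs (grey) and the 11 named genes at each end, higher (red) and lower (blue). The solid line marks equal levels and dashed lines 2-fold; Fabp7 lies above the line at a high level, and Sag and Gngt1 lie well below it.

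Mettl14 itself was too low in astrocytes to be compared. It had 4 UMIs in Mettl14-cKO astrocytes (13.7 CPM, interval 3.73 to 35.0) and 2 in control astrocytes (10.1 CPM, 1.22 to 36.4), a ratio of 1.36 with an interval of 0.195 to 15.01. In the barcodes over the Rlbp1 limit it had 6 and 11 UMIs (9.95 and 25.8 CPM). In Müller glia, which arise from the progenitors, it had 54 and 90 UMIs, or 14.9 and 24.97 CPM, a ratio of 0.60 (0.42 to 0.85). Which exons are floxed is not given in the sources used here, and UMIs from the 3′ end may lie outside them, so this level does not show whether the allele was recombined. None of the 9 m6A writer genes had 50 UMIs in astrocytes; together they had 114 and 51. Of 12 m6A readers and erasers, 3 were measured (Ythdc1, Hnrnpa2b1 and Hnrnpc) and 0 passed 2-fold. With 2.49% of all measured genes higher and 1.58% lower, a count of 0 among 3 is near that share.

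Abcd4, which codes for a lysosomal transporter of vitamin B12, stood furthest apart among the genes not tied to dividing cells. It had 75 UMIs in 30 of 47 Mettl14-cKO astrocytes, with 0 to 8 UMIs per cell and a median of 1, and 5 UMIs in 5 of 28 control astrocytes, with at most 1 per cell. The levels were 257 CPM (202 to 322) in Mettl14-cKO and 25.2 CPM (8.18 to 58.8) in control, a ratio of 10.2 (4.17 to 32.3). The barcodes over the Rlbp1 limit had close values in other cells, with 156 and 10 UMIs, levels of 259 and 23.4 CPM and a ratio of 11.05 (5.85 to 23.5). With every cell thinned to 1500 UMIs, Abcd4 was found in 15 of 45 Mettl14-cKO astrocytes and 1 of 28 control astrocytes. Müller glia had 54.1 and 18.0 CPM (ratio 3.00, 2.26 to 4.04), and the whole libraries 40.2 and 11.8 CPM, so the Mettl14-cKO astrocyte level was 638% of that of its library. Abcd4 is one of the genes known from earlier results of these data to be raised across the Mettl14-cKO retina. In GRCm38, Abcd4 (ENSMUSG00000021240) lies on chromosome 12 from 84601464 to 84617413 on the minus strand. Why it differed was not tested.

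Most other genes raised across the Mettl14-cKO retina had too few UMIs in astrocytes to be compared. The list of 14 such genes was made from earlier results of these data, so its direction in the retina is not independent evidence. Only Abcd4 had 50 UMIs in astrocytes, while 12 had 50 in Müller glia. All 12 were at least 2-fold higher there (median log2 ratio 2.01), where 4.58% of all genes were. Lcmt2, a tRNA-modifying enzyme gene, had 4 and 3 UMIs in Mettl14-cKO and control astrocytes (ratio 0.91, 0.15 to 6.18) and 6 and 7 UMIs in the barcodes over the Rlbp1 limit, against 72.4 and 11.4 CPM in Müller glia. Aen, a nuclease gene induced by p53, had 12 and 10 UMIs in astrocytes and 18 and 16 over the limit (ratios 0.81, 0.32 to 2.11, and 0.80, 0.38 to 1.67), whereas its ratio in Müller glia was 3.92 (3.13 to 4.95). Lsm10 had 11 and 6 UMIs and Gdf11 5 and 3 in astrocytes, with Müller ratios of 3.49 and 3.07. Phlda3 had 16 and 10 UMIs in astrocytes (54.7 and 50.4 CPM), with 48.1 and 11.7 CPM in Müller glia. Zfp992, Zfp758, Insm2, Lrtm2, Igf2bp1 and Cntnap5a had 0 to 2 UMIs in astrocytes of either library.

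Cdkn1a, the cell cycle inhibitor p21 and a p53 target, had 19 UMIs in 5 Mettl14-cKO astrocytes and 0 UMIs in control astrocytes. One cell held 12 of the 19 UMIs, and 4 of the 5 cells, this one included, were marked as doublets by Scrublet; the part of doublets in this result was not tested. The Mettl14-cKO level was 65.0 CPM, and a count of 0 in the control cells allows up to 18.6 CPM. With the control count set to the floor of 3, the ratio was 4.30, which is not a lower bound. Over the Rlbp1 limit Cdkn1a had 17 UMIs in 12 Mettl14-cKO barcodes and 2 in control (28.2 and 4.68 CPM, ratio 6.02, 1.43 to 53.7), and Müller glia had 119 and 6.66 CPM. Rbm15, an RNA-binding subunit of the m6A writer complex, had 14 UMIs in 9 Mettl14-cKO astrocytes and 2 in control astrocytes (47.9 and 10.1 CPM, ratio 4.75, 1.09 to 43.1). Of 20 p53 targets, only Bax and Btg2 had 50 UMIs in astrocytes, with ratios of 0.87 (0.61 to 1.26) and 0.67 (0.50 to 0.90), and 0 passed 2-fold, where 2.49% of all genes were higher and 1.58% lower; in Müller glia 5 of 13 were at least 2-fold higher, where 4.58% of all genes were.

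Fabp7 was the gene past 2-fold with the most UMIs. It had 763 UMIs in 38 of 47 Mettl14-cKO astrocytes (median 4, highest 166 per cell) and 169 UMIs in 18 of 28 control astrocytes (median 1.5, highest 80). The levels were 2610 and 852 CPM, a ratio of 3.06 (2.59 to 3.64). The 3 highest cells held 47.3% of the UMIs in Mettl14-cKO and 62.7% in control, so the per-cell ranges overlap widely. In the barcodes over the Rlbp1 limit the levels were 1700 and 606 CPM (ratio 2.80, 2.44 to 3.23), and in Müller glia 215 and 99.3 CPM (2.16, 1.90 to 2.46). The ratio was 2.44 without the cells marked as doublets and 6.06 in the cells with both Pdgfra and Pax2.

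Several of the genes furthest higher had much of their Mettl14-cKO RNA in few cells, and others were spread more widely. The 3 highest Mettl14-cKO cells held 47.4% of the Tagln2, 45.6% of the Pmepa1 and 41.7% of the Arpc1b UMIs. For Cald1 and Zic1 they held 29.3% and 25%. Tagln2, an actin-binding protein, had 135 UMIs in Mettl14-cKO and 21 in control astrocytes (462 and 106 CPM, ratio 4.36, 2.74 to 7.28), and its ratio over the Rlbp1 limit was 2.23 (1.63 to 3.1). Arpc1b, a subunit of the actin-branching Arp2/3 complex, had a ratio of 4.65 (2.09 to 12.2), and Cald1, caldesmon, one of 3.03 (1.64 to 6.02). Pmepa1, a target of TGF-β signalling, had a ratio of 3.30 (1.84 to 6.35), but 1.35 with each cell given equal weight and 11.1 in the cells with both Pdgfra and Pax2, and 36.8% of its Mettl14-cKO UMIs lay in 3 dividing cells. Of the Tagln2 UMIs, 28.1% lay in the same cells. The Tagln2 ratio was 4.27 without dividing cells and 3.59 with each cell given equal weight. The zinc finger factor Zic1 had a ratio of 3.32 (1.599 to 7.73). Over the Rlbp1 limit, Arpc1b, Cald1, Pmepa1 and Zic1 had ratios of 1.08 to 1.85, all short of 2-fold, with Zic1 at 1.85 (1.18 to 2.97). In Müller glia Zic1 had a ratio of 2.10 (1.55 to 2.88), and Arpc1b, Cald1 and Pmepa1 had 1.13, 0.75 and 1.09. Over the whole libraries Zic1 had 3.25, and Arpc1b, Cald1 and Pmepa1 had 2.32, 1.21 and 1.42. With no limit on Rlbp1, Cald1 had a ratio of 1.49 and Arpc1b one of 2.01. Ccnd1, cyclin D1, had 63 UMIs in 17 Mettl14-cKO cells and 5 in 5 control cells (ratio 8.55, 3.48 to 27.2), with 3 Mettl14-cKO cells holding 58.7% of its UMIs; over the limit the ratio was 1.45 (0.97 to 2.20). The Ccnd1 ratio was 7.93 without dividing cells and 6.38 with each cell given equal weight, and in Müller glia it was 0.72. Ccnd1 is itself 1 of the 7 progenitor markers, and so are the division genes Mki67 and Top2a. Without these 3 the progenitor markers summed to 472 CPM in Mettl14-cKO and 418 CPM in control astrocytes.

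The remaining genes of the upper end belonged to dividing cells, of which there were few. Cells that had UMIs of 2 or more division genes (from among Cdk1, Cenpf, Mki67, Top2a, Ube2c) numbered 3 of 47 in Mettl14-cKO and 1 of 28 in control. The histone gene Hist1h1b had 100 UMIs in Mettl14-cKO and 3 in control astrocytes (ratio 22.6, 7.52 to 112), and 95 of the Mettl14-cKO UMIs lay in the 3 dividing cells. Hist1h2ae and Hist1h2ap had ratios of 6.11 and 3.30, with 92.6% and 91.9% of their Mettl14-cKO UMIs in those cells. Without dividing cells, these 3 ratios were 1.87, 0.499 and 0.412. All 66 Mki67 UMIs and all 46 Top2a UMIs of the Mettl14-cKO astrocytes lay in the same 3 cells, against 5 and 15 UMIs in the single control cell. Of those 3 cells, 1 was marked as a doublet and held 38 amacrine UMIs, and 2 had no Gfap. Of the 2 without Gfap, the unmarked cell had 2 Pdgfra UMIs, 0 of Pax2 and of S100b, and 4 of Pax6. That cell also held 46 of the 66 Mki67 UMIs. Its markers go against the name astrocyte, but the rule keeps it among the 47 Mettl14-cKO cells. Of the 30 listed for G2 and M phase, 7 were measured and 2 were at least 2-fold higher (Mki67 and Top2a), where 2.49% of all measured genes were. Of 28 S phase genes 0 were measured.

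At the lower end, 8 genes lay mostly in a few cells rich in rod RNA, whose part in these ratios was not tested. Sag, the gene of the arrestin of rods, had 20 UMIs in Mettl14-cKO and 105 in control astrocytes (68.4 and 529 CPM, ratio 0.13, 0.076 to 0.21). Gngt1, Pde6g, Rom1, Nr2e3, Rp1 and Pdc, which serve phototransduction, the outer segment or rod identity, had ratios of 0.14 to 0.34, and Ebpl one of 0.25. In these 8 genes, 66.7 to 92.5% of the control UMIs lay in 3 control cells that each had 58 to 172 UMIs of the 9 rod markers. Only 1 Mettl14-cKO astrocyte had over 20 rod UMIs, with 43. Without these 4 cells, Nr2e3 and Rp1 turned to ratios of 1.16 and 1.74, and Pdc, Ebpl and Pde6g had ratios of 0.95, 0.70 and 0.54. Sag, Gngt1 and Rom1 stayed at least 2-fold lower without them, and the highest ratio of Gngt1 over all alternatives was 0.40. Lower levels of these 3 genes were not particular to astrocytes. Over the whole libraries Sag, Gngt1 and Rom1 had ratios of 0.46, 0.37 and 0.87, and in microglia 0.23, 0.23 and 0.50. In 31 Mettl14-cKO and 29 control pericytes the ratios were 1.67, 0.70 and 3.53. Over the Rlbp1 limit, Pde6g, Rom1, Nr2e3, Rp1, Pdc and Ebpl had ratios of 1.53 to 2.58. Sag had one of 1.05 (0.80 to 1.39) there, and Gngt1 stayed lower at 0.55 (0.42 to 0.72).

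Another 3 genes of the lower end did not sit in those cells. Fbxo2, the gene of an F-box protein that recognizes glycoproteins, had 77 UMIs in 27 of 47 Mettl14-cKO astrocytes (median 1) and 215 in 25 of 28 control astrocytes (median 7). Its levels were 263 and 1084 CPM, a ratio of 0.24 (0.19 to 0.32). The ratio was 0.59 (0.50 to 0.69) over the Rlbp1 limit and 0.46 in Müller glia. Ass1, argininosuccinate synthase, had 18 UMIs in 13 Mettl14-cKO cells and 60 in 24 control cells (ratio 0.20, 0.11 to 0.35), with 0.43 (0.31 to 0.59) over the limit and 0.33 in Müller glia. Id1, a relative of Id4 and a target of BMP signalling, had 54 UMIs in 25 Mettl14-cKO cells and 100 in 24 control cells (185 and 504 CPM, ratio 0.37, 0.26 to 0.52), with 0.59 (0.48 to 0.72) over the limit, 0.52 with both sets summed and 0.30 in Müller glia. Thinned to 1500 UMIs, Id1 was found in 7 of 45 Mettl14-cKO and 13 of 28 control astrocytes.

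Looked up in the barcodes over the Rlbp1 limit, 37 of the 41 higher genes were measured, of which 31 had a ratio above 1 and 5 were again at least 2-fold higher, against 1.27% of all genes there. These were Abcd4, Fabp7, Tagln2, Trf and Pdlim4. Of the 26 lower genes all were measured, 16 had a ratio below 1 and 3 were again at least 2-fold lower (Ass1, Cox4i2 and Sct), against 0.635% of all genes there, while 2 were at least 2-fold higher (Ebpl and Rp1). The median log2 ratio over all 3309 genes of that set was 0.02, so about as many lay above 1 as below it. The 16 of 26 lower genes below 1 are near that share. In Müller glia, 3 of 37 measured higher genes were at least 2-fold higher and 3 at least 2-fold lower, and 6 of 23 measured lower genes were at least 2-fold lower, where 4.58% of all genes were higher and 3.16% lower.

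**Figure D4:**
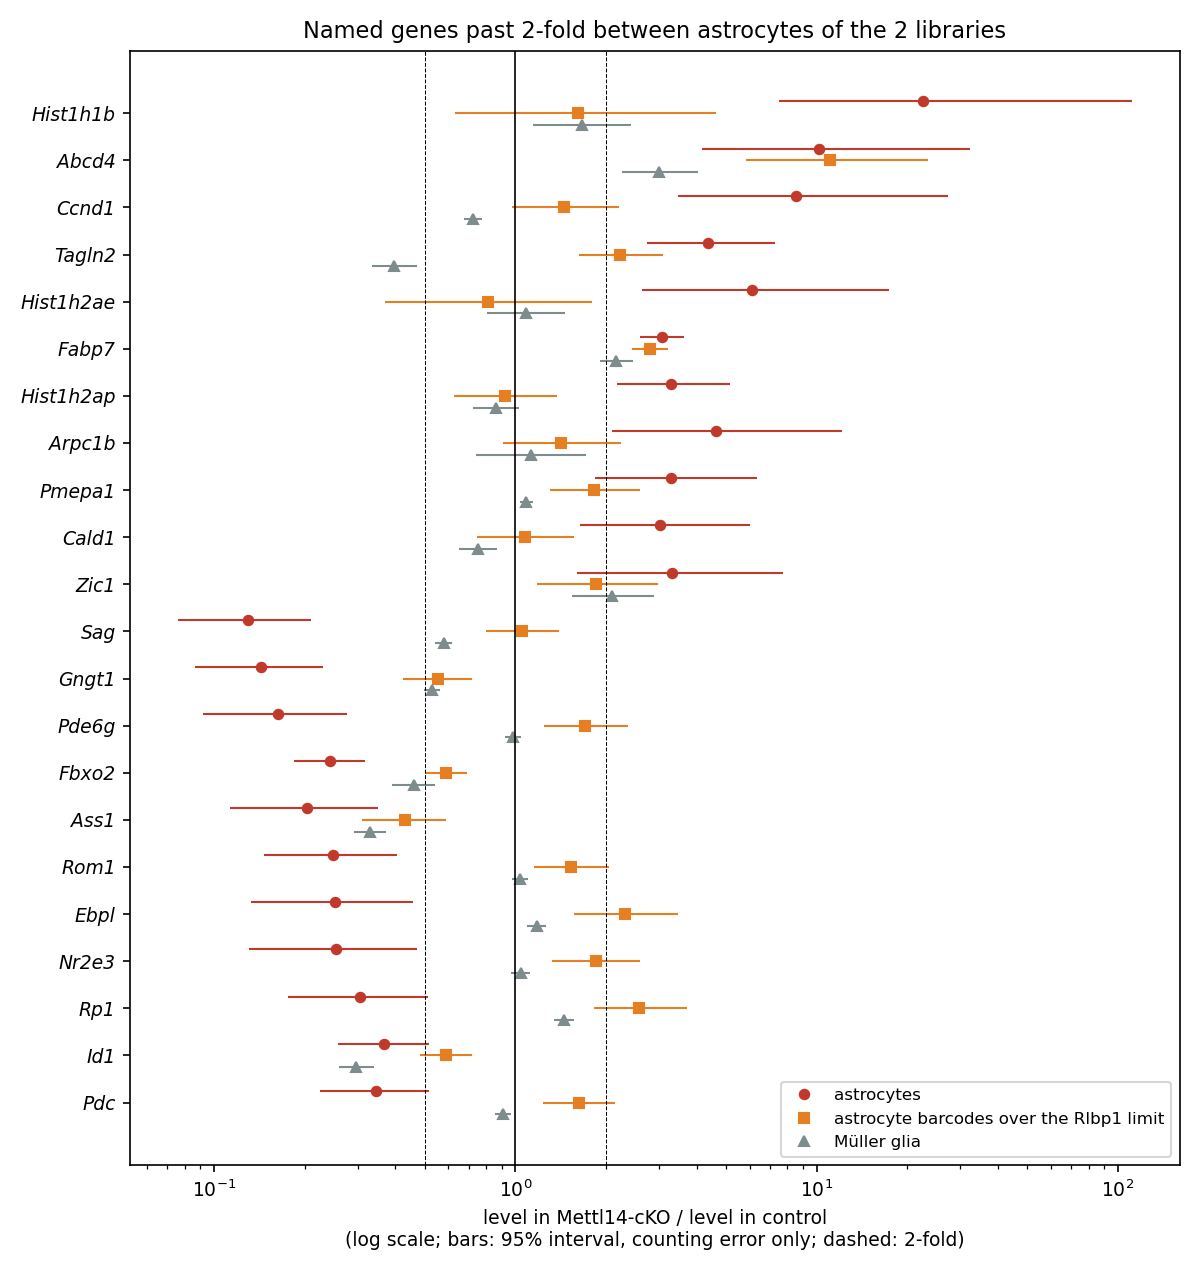
Ratio of the level in Mettl14-cKO to that in control (x axis, log scale, bars for the 95% interval of counting error, dashed lines at 2-fold) for the 22 named genes past 2-fold in astrocytes, in astrocytes (circles), barcodes over the Rlbp1 limit (squares) and Müller glia (triangles). Abcd4 and Fabp7 lie past 2-fold on the right in all 3 sets, and Tagln2 lies past 2-fold on opposite sides in astrocytes and Müller glia. Ccnd1, Hist1h2ap, Cald1, Rom1, Ebpl, Nr2e3 and Rp1 also change side of 1 between astrocytes and Müller glia.

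The counts for the gene lists below stand against 2.49% of all measured genes higher and 1.58% lower, so that with few genes measured a count of 0 or 1 is near that share. Of 15 astrocyte identity genes 11 were measured and 0 passed 2-fold in either direction, with a median log2 ratio of 0.17 against -0.01 over all measured genes. The rule that chose the cells used Pax2, Pdgfra, Gfap, Aldh1l1, S100b, Slc1a3 and Apoe of this list. Its count and median are therefore a description and do not show that identity was unchanged. The same limit holds for Pdgfra, Gfap and Apoe in the lists below. Apoe was at 4632 and 4803 CPM in Mettl14-cKO and control astrocytes, Slc1a3, the glutamate transporter GLAST, at 1341 and 811 CPM (ratio 1.65, 1.37 to 1.998), and Id3 at 1930 and 3195 CPM (ratio 0.60, 0.54 to 0.68). Of 21 maturation genes 11 were measured, 1 was at least 2-fold higher (Sparcl1, 58 and 19 UMIs, ratio 2.07, 1.22 to 3.68) and 0 lower, with a median of -0.26. In that list Cst3 had a ratio of 1.02 (0.998 to 1.05), Aldoc 0.97 (0.83 to 1.14), Glul 0.80 (0.63 to 1.02), Mt3 0.84 (0.70 to 1.01) and Mt1 0.66 (0.53 to 0.82). Aqp4 and Kcnj10, channels of mature astrocytes, had 0 UMIs in both libraries.

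The measured genes for vessels and matrix lay within 2-fold. Vegfa had 108 UMIs in Mettl14-cKO and 50 in control astrocytes (369 and 252 CPM, ratio 1.47, 1.04 to 2.09), and 291 and 168 UMIs over the Rlbp1 limit (ratio 1.23, 1.01 to 1.49), whereas Müller glia had 101 and 169 CPM (ratio 0.60, 0.52 to 0.68). The 3 highest astrocytes held 42.6% of the Vegfa UMIs in Mettl14-cKO and 32% in control. Vegfa was found in 27 of 47 Mettl14-cKO astrocytes (median 1 UMI per cell) and 18 of 28 control astrocytes (median 1.5). Cxcl12, a chemokine, had a ratio of 0.66 (0.48 to 0.91) and Tgfb2 1.21 (0.95 to 1.56). Vegfa, Cxcl12 and Tgfb2 were the 3 measured genes of 15. Of 20 matrix genes 6 were measured and 0 passed 2-fold (median -0.23): Fn1 had a ratio of 1.45 (1.14 to 1.84), Sparc 0.82 (0.72 to 0.94) and Vcan 1.96 (1.13 to 3.56). Of 6 intermediate filament genes Gfap and Vim were measured, with ratios of 0.83 (0.66 to 1.03) and 1.25 (1.09 to 1.42). In Müller glia the ratio of Vim was 0.55 (0.53 to 0.57).

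Of 26 hypoxia and glycolysis genes 13 were measured and 0 passed 2-fold (median -0.11, against -0.48 over 23 in Müller glia). Aldoc, Gapdh and Ldha, enzymes of glycolysis, had ratios of 0.97, 0.92 and 0.79. Of 11 Notch and Id genes 6 were measured and Id1 alone passed 2-fold, lower, while Hes1 and Hes5, effectors of Notch, had ratios of 0.93 (0.72 to 1.20) and 0.92 (0.67 to 1.26). Of 21 receptors only Pdgfra and Ntrk2 were measured, at 1.04 and 1.43. Of 21 lipid genes 5 were measured and Fabp7 alone passed 2-fold. Of 18 reactive glia genes Gfap, Vim and Cp were measured and 0 passed 2-fold, and of 17 interferon genes 0 were measured. Of 22 immediate early genes, which dissociation can induce, 7 were measured and 0 passed 2-fold (median -0.47), with Fos at 602 and 711 CPM and Jun at 890 and 1063 CPM in Mettl14-cKO and control astrocytes.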

How the data were processed

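Single-cell 3′ libraries of dissociated retina were measured, 1 per genotype; the groups are those of the labels. The values used are deposited UMI counts for each gene in each barcode. Cell Ranger 6.1.1 produced them, per the file headers, on mm10, per the submitters' processing notes; no normalized values were used. Barcodes with at least 1000 UMIs, 500 genes and at most 15% mitochondrial UMIs were kept. Counts were summed over cells of a class and library and given per 1000000 (CPM). Ratios carry exact conditional intervals, levels exact Poisson and shares Clopper-Pearson intervals, at 95%, for counting error only. Counts under 3 were set to a floor of 3 per library in medians and where a ratio is given at the floor. Cells are not replicates, so no test was run; genes with 50 UMIs over both libraries were read by a 2-fold rule of size. Doublets were marked with Scrublet in Scanpy 1.11.5 and kept, with an alternative without them; clustering used 2000 variable genes, 30 components, 20 neighbours and Leiden resolution 1. Named genes are the 12 highest and 12 lowest ratios by the interval bound nearest 1 among genes in at least 10% of cells of 1 library (mitochondrial, ribosomal protein and sex-linked genes left out), for Müller glia the 15 highest and 10 lowest, the members of each list with most UMIs or past 2-fold, and the markers. A few items that the rule picks are not reported here. Members, lists and comparisons were chosen with earlier results of these data known. Gene positions are from GENCODE M21 on GRCm38. Calculations were tested on simulated counts.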

Additional observations from a re-analysis of the deposited data

Results flagged for a closer look

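Tagln2 was past 2-fold in opposite directions in the 2 glial classes, and the difference between classes was not tested. It had a ratio of 4.36 in astrocytes (Mettl14-cKO over control, 462 and 106 CPM), against 0.40 in Müller glia (51.9 and 131 CPM). In the barcodes over the Rlbp1 limit the ratio was 2.23.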

How the results depend on the processing

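The share ratio of 1.41 ranged from 1.13 to 1.55 over the alternatives and the Mettl14 ratio of 1.36 from 0.54 to 2.04, each inside its counting interval; Mettl14 had no value with cells thinned to 1500 UMIs before the rule. The count of 41 higher genes was 27 with both Pdgfra and Pax2 found, 2 with thinning, 7 at 100 and 268 at 20 UMIs per gene, and 66 with no limit on Rlbp1. The 26 lower genes were 6 with thinning, 11 at 100 and 112 at 20 UMIs, and 41 with each cell given equal weight. The 6 list members past 2-fold were 3 with both genes found, 23 at 20 UMIs and 10 with no Rlbp1 limit. The genes higher and lower than in Müller glia ranged from 112 to 146 and from 414 to 473. Hist1h2ae turned to 0.499 and 0.567, and Hist1h2ap to 0.412 and 0.390, without dividing cells and in the main cluster alone. With no Rlbp1 limit Ebpl turned to 1.16, Nr2e3 to 1.14, Rp1 to 1.34 and Pdc to 1.002; without the 4 rod-rich cells Nr2e3 turned to 1.16 and Rp1 to 1.74. Abcd4 stayed between 8.69 and 13.7 and Fabp7 between 2.44 and 6.06. The settings on the Rlbp1 limit, the main cluster and rod-rich cells were chosen after seeing the data. No paired analysis was possible because there is 1 library per genotype, and for the same reason no library could be left out. Depth limits the astrocytes: genes under 50 UMIs are given as values with intervals and not counted. Where not shown by fewer cells or genes, the cause was not tested.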

Other observations

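A few genes outside the naming rule were looked at after their values were seen. Adm, adrenomedullin, a secreted vasodilator peptide, had 26 UMIs in 12 Mettl14-cKO astrocytes and 4 in 2 control astrocytes (ratio 4.41, 1.53 to 17.4), too few to be counted above. Over the Rlbp1 limit it had 114 and 15 UMIs (189 and 35.1 CPM, ratio 5.38, 3.13 to 9.93), and Müller glia had 0 and 18 UMIs. Nes, the filament gene nestin of immature glia, had 35 and 2 UMIs in astrocytes, of which 19 lay in 1 Mettl14-cKO cell, and 35 and 8 over the limit (ratio 3.099, 1.41 to 7.73).

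Among the 26 lower genes, Sct, secretin, had 19 UMIs in Mettl14-cKO and 34 in control astrocytes (ratio 0.38, 0.20 to 0.68) and 37 and 72 over the limit (0.36, 0.24 to 0.55). Cox4i2, a subunit of cytochrome c oxidase, had ratios of 0.39 (0.21 to 0.68) and 0.43 (0.31 to 0.58). H19, an imprinted noncoding RNA and neighbour of Igf2, had 65 and 103 UMIs in astrocytes (0.43, 0.31 to 0.59) and a ratio of 0.77 (0.66 to 0.91) over the limit, while Igf2 had 0.85 (0.73 to 0.997) in astrocytes. Among the higher genes, Trf, transferrin, had ratios of 2.32 (1.33 to 4.24) in astrocytes and 2.04 (1.41 to 3.00) over the limit, and 0.46 in Müller glia.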
